A study of Mus musculus with 8 samples.

Results

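Genes of antigen presentation by major histocompatibility complex (MHC) class II were followed across a bulk RNA-seq series of mouse myeloid progenitors. They were chosen by name, as the 8 genes H2-Aa, H2-Ab1, H2-Eb1, Cd74, Ciita, H2-DMa, H2-DMb1 and H2-DMb2, and all 8 were among the 34199 genes counted in every library. H2-Aa appeared in CAF-1 OFF cells, with 93 and 75 counts, and was at 0 in all 4 control libraries. Its partner chain H2-Ab1 stayed at 8 counts or fewer in every library. Cd74 and the genes of the H2-DM peptide editor were highest in HOXA9 OFF cells, in which H2-Aa reached only 3 and 11 counts.

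MHC class II molecules display peptides from endocytosed protein to CD4+ T cells. Each is a pair of an alpha and a beta chain, which in C57BL/6 mice means the I-A molecule made from H2-Aa and H2-Ab1, since this strain lacks a working I-E alpha gene to pair with H2-Eb1. The pair is assembled in the endoplasmic reticulum on the invariant chain, encoded by Cd74, which blocks the peptide groove and directs the complex to endosomes. There cathepsins digest the invariant chain, and H2-DM, a dimer of H2-DMa with H2-DMb1 or H2-DMb2, exchanges its last fragment for peptide. Transcription of these genes depends on Ciita, a co-activator that binds no DNA itself and works through proteins bound to the X and Y boxes of class II promoters. Dendritic cells, B cells and activated macrophages are the cells best known for the pathway, and neutrophil precursors are not.

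The cells were immortalized granulocyte-macrophage progenitors (iGMPs) with a C57Bl/6 strain label, made from Lys-GFP bone marrow and kept self-renewing by a HOXA9 protein fused to a mutant estrogen receptor domain that is active in beta-estradiol. Uninduced iGMPs (t0) were grown with 150 ng/ml beta-estradiol. CAF-1 OFF cells received 500 µM IPTG for 48 h with beta-estradiol present, to express an inducible short hairpin RNA against Chaf1b, a subunit of the histone chaperone CAF-1. An IPTG-treated control was grown with IPTG for 48 h, and the methods give the control vector for IPTG induction as one with a stuffer insert in place of a hairpin. HOXA9 OFF cells were kept without beta-estradiol for 48 h, which inactivates the HOXA9 fusion and starts neutrophil differentiation. The study worked with clonal lines, so the results describe one immortalized progenitor system. Each group had 2 libraries. Except for the IPTG control, the supplement of the study describes RNA-seq from independent subclones, but the labels tie no library to a subclone, and p-values measure the spread between these libraries.

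Library totals ran from 14044284 to 22423837 gene counts, so that 3 counts corresponded to between 0.128 and 0.212 CPM in a library, CPM being counts scaled by TMM to a library of 1000000. The knocked-down gene Chaf1b had 96.8 and 100.3 CPM before induction and 18.7 and 9.72 CPM once CAF-1 was OFF, a log2 change of -2.79 ± 0.27 (SE, edgeR FDR 0.00236). The IPTG control had 95.1 and 101.7 CPM, and HOXA9 OFF cells had 48.3 and 41.0 CPM. All 8 progenitor markers in the list, among them Cd34, Kit, Mpo and Ctsg, were above 1 CPM in every library. Their summed level was between 10770 and 14850 CPM in uninduced and IPTG control libraries, 16310 and 16350 CPM in CAF-1 OFF libraries, and 8420 and 6140 CPM in HOXA9 OFF libraries. The members of that sum went different ways in HOXA9 OFF: Cd34, Kit and Ctsg were called lower than in uninduced cells, Ms4a3 was called higher (edgeR FDR 0.0117), and Mpo, Elane, Prtn3 and Cebpa were not called. Of all tested genes 25.2% were called higher and 22.1% lower in that comparison. In CAF-1 OFF Elane was the 1 of 8 called, 3.05-fold higher than in uninduced cells and 2.94-fold higher than in the IPTG control (edgeR FDR 0.0334 and 0.0406). That number is near the share of all tested genes called higher, 10.5% against uninduced cells and 9.56% against the IPTG control. In bulk RNA, more cells expressing a gene and more RNA per cell cannot be told apart.

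Members were tested with edgeR over all genes that passed a filter on low counts, and a gene was called at a false discovery rate (FDR) under 0.05 with a change of at least 1.5-fold. H2-Aa, Cd74, H2-DMa, H2-DMb1 and H2-DMb2 passed the filter, and H2-Ab1, H2-Eb1 and Ciita did not. H2-Aa and Cd74 passed through the groups in which they were high, so the number of members called supports nothing about the pathway as a whole. Of the 5 tested, 3 were called higher in CAF-1 OFF than in uninduced cells (H2-Aa, Cd74 and H2-DMa) and 0 lower, where 10.5% of all 13080 tested genes were called higher and 3.5% lower. The same members were called higher in CAF-1 OFF than in the IPTG control, against 9.56% of all tested genes called higher and 3.2% lower. In HOXA9 OFF against uninduced cells all 5 were called higher, where 25.2% of tested genes were higher and 22.1% lower. Between CAF-1 OFF and HOXA9 OFF cells H2-Aa was called higher in CAF-1 OFF, where 22.2% of tested genes were, and Cd74, H2-DMa and H2-DMb2 were called lower, where 21.4% were. No member and 0% of tested genes were called by edgeR between the IPTG control and uninduced cells. There 100 genes and 0 members had an unadjusted edgeR p under 0.05, and DESeq2 called 5 genes and 0 members. The comparisons with uninduced cells share the same 2 uninduced libraries.

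**Figure D1:**
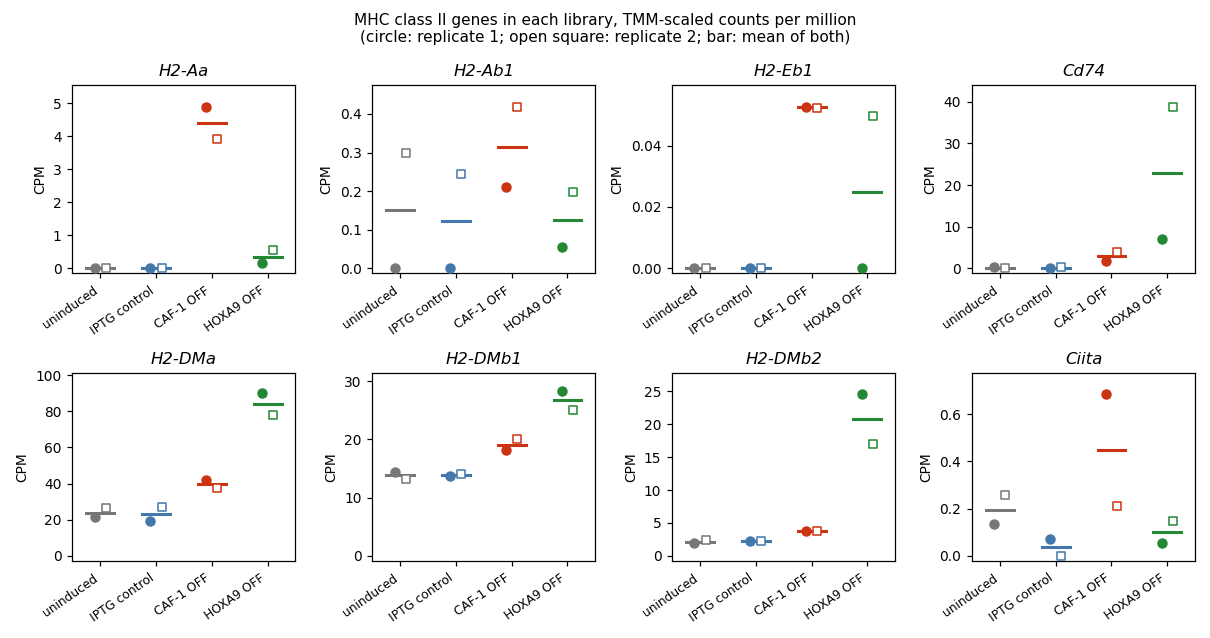
Each panel shows one MHC class II gene, with the 4 groups on the x axis and CPM (TMM-scaled, linear axis with its own range) on the y axis. The filled circle is replicate 1, the open square is replicate 2 and the bar is their mean. H2-Aa is above 3.9 CPM only in the 2 CAF-1 OFF libraries, while Cd74, H2-DMa, H2-DMb1 and H2-DMb2 are highest in HOXA9 OFF and H2-Ab1 and H2-Eb1 stay below 0.5 CPM.

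H2-Aa encodes the alpha chain of the I-A molecule. It had 0 counts in both uninduced libraries and in both IPTG control libraries, 93 and 75 counts in CAF-1 OFF, and 3 and 11 counts in HOXA9 OFF. Scaled to library size, CAF-1 OFF cells held 4.41 ± 0.69 CPM and HOXA9 OFF cells 0.354 ± 0.271 CPM (SD, n = 2). The CAF-1 OFF libraries were far above every other library, and both HOXA9 OFF libraries lay above the 4 control libraries. Set against 3 counts in the smaller library of each control group, the CAF-1 OFF level was at least 33-fold higher than in uninduced cells and at least 20.8-fold higher than in the IPTG control. The edgeR FDR was 0.0068 against uninduced cells and 0.00954 against the IPTG control. On the same floor the HOXA9 OFF level was at least 2.65-fold higher than in uninduced cells (edgeR FDR 0.0118), on 14 counts in all. That bound rested on replicate 2, since replicate 1 was at 0.163 CPM beside a floor of 0.134 CPM. The fitted log2 change, which is no bound, was 4.69 without HOXA9 OFF replicate 2 and 6.41 without replicate 1 (edgeR FDR 0.0394 and 0.00605). H2-Aa was higher in CAF-1 OFF than in HOXA9 OFF cells, with a log2 difference of 3.60 ± 0.63 (SE, edgeR FDR 0.00496), a ratio of 12.1 with a 95% counting interval from 7.04 to 22.7. Without HOXA9 OFF replicate 1 this log2 difference was 2.99, and without replicate 2 it was 4.69. Intervals here cover counting error only.

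H2-Ab1 encodes the I-A beta chain, without which the alpha chain forms no class II molecule. It had 0 and 7 counts in uninduced cells, 0 and 4 in the IPTG control, 4 and 8 in CAF-1 OFF and 1 and 4 in HOXA9 OFF. CAF-1 OFF overlapped both control groups, and its lower library, at 0.211 CPM, was just above the higher HOXA9 OFF library, at 0.198 CPM. The ratio of CAF-1 OFF to uninduced cells was 2.06 with a counting interval from 0.748 to 6.18, so a difference was not detectable at this depth, and a fit with no filter gave an edgeR FDR of 0.696. In CAF-1 OFF libraries H2-Aa stood at 168 counts in sum and H2-Ab1 at 12. Per kilobase of exon, H2-Aa had 2.46 and 1.97 CPM and H2-Ab1 0.128 and 0.254 CPM in those libraries. H2-Eb1, the I-E beta chain, had 1 count in each CAF-1 OFF library, 1 in HOXA9 OFF replicate 2 and 0 elsewhere, which is under the floor in every group. The I-E alpha pseudogene H2-Ea-ps was at 0 counts in all 8 libraries.

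H2-Aa and H2-Ab1 lie tail to tail on chromosome 17. In the mm9 annotation (GENCODE vM1) H2-Aa spans chr17:34406276-34424772 on the minus strand and H2-Ab1 chr17:34400154-34406363 on the plus strand, both protein coding, and their exons share 17 bases. The strand setting of the counting is not given in the sources used here, so reads in those bases could not be assigned to one gene with certainty. Every 50-base window of the longest H2-Aa transcript was unique to H2-Aa among protein-coding transcripts (100% of 1083 windows), and the same held for H2-Ab1, H2-Eb1, Cd74, Ciita and H2-DMa. H2-Eb1 lies at chr17:34442828-34453144, H2-DMa at chr17:34272127-34276046, H2-DMb2 at chr17:34280252-34288498 and H2-DMb1 at chr17:34290017-34297168, all on the plus strand of the same MHC region. Cd74 and Ciita lie outside it, on other chromosomes.

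The promoters of the class II genes are shown because Ciita acts through their X and Y boxes. RefSeq promoter windows (GRCm38.p6), with 250 bases before the start and 50 after it, were at hand for 5 of the 8 members: H2-Aa, H2-Eb1, H2-DMa, H2-DMb1 and H2-DMb2. They were not at hand for H2-Ab1, Cd74 and Ciita. The X box was searched as CCNAG, 2 free bases, AC, 1 free base and GATG in a row, with up to 1 letter different and the Y box as TGATTGG with no difference, on both strands. Among all 32851 windows, 1.97% held such an X box (0.0609% with every letter), 7.82% held the Y box, and 0.0426% held an X box followed by a Y box on the strand of the gene. H2-Eb1, H2-DMb1 and H2-DMb2 were among the last, and so were H2-Ob and H2-Eb2 of the wider family. The 140 bases before the start are given 5′ to 3′ on the strand of the gene, with matches to the searched letters in capitals. They are from H2-Aa (chr17:34287824-34287963, minus strand), H2-Eb1 (chr17:34305727-34305866, plus strand) and H2-DMb2 (chr17:34145109-34145248, plus strand).
H2-Aa: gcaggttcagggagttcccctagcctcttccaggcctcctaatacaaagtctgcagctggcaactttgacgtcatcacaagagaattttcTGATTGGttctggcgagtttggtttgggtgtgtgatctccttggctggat
H2-Eb1: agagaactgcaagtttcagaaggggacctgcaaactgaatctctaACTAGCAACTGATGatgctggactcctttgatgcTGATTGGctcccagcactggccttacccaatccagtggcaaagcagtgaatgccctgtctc
H2-DMb2: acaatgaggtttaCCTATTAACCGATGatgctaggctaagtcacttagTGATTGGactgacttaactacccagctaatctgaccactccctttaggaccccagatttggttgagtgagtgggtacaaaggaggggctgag

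H2-Aa held the Y box, 50 bases before its start, and no match to the X box letters under this setting. A box with more letters different would be missed, so the lack of a match does not show that a box is absent. H2-Eb1 held an X box 95 bases and a Y box 61 bases before the start, 20 bases apart, and its counts never passed 1. H2-DMb1 and H2-DMb2, which also hold both boxes, were expressed in every library. Neither of the 2 starts of H2-DMa held a match to the X or Y box letters under this setting. The match of letters says nothing of which proteins were bound in these cells.

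**Figure D2:**
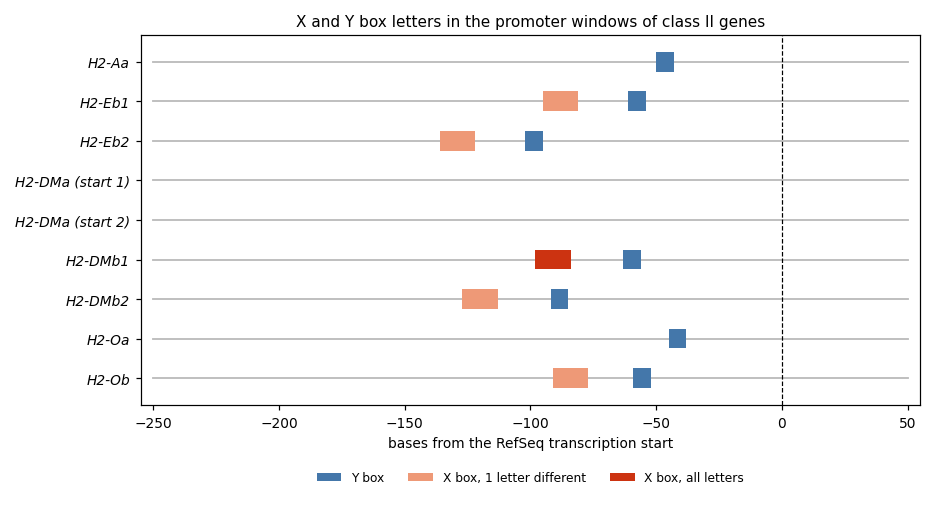
Positions of the X box (14 bases) and Y box letters in RefSeq promoter windows, as bases from the transcription start on the x axis, with one line per window. Red marks an X box with every letter, orange an X box with 1 letter different and blue a Y box. Under this setting H2-Aa and H2-Oa matched only the Y box letters, and both H2-DMa windows had no match.

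Cd74, the invariant chain, had 4 and 2 counts in uninduced cells and 1 and 3 in the IPTG control. It had 34 and 75 counts in CAF-1 OFF and 130 and 782 counts in HOXA9 OFF. Every CAF-1 OFF library lay above every control library and below every HOXA9 OFF library. The ratio to uninduced cells was 21.8 in CAF-1 OFF, with a counting interval from 9.72 to 60.8, and 181 in HOXA9 OFF, with an interval from 82.6 to 493. The fitted log2 changes were 4.38 ± 1.05 (SE, edgeR FDR 0.0264) and 7.38 ± 1.05 (edgeR FDR 0.000639). Against the IPTG control the CAF-1 OFF change was 4.38 ± 1.13 (edgeR FDR 0.0363).

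The HOXA9 OFF libraries differed widely in Cd74, at 7.05 CPM in replicate 1 and 38.8 CPM in replicate 2. Without replicate 2 the log2 change from uninduced cells was 5.68, and without replicate 1 it was 8.14, both called. Cd74 was lower in CAF-1 OFF than in HOXA9 OFF cells by a log2 difference of -3.00 ± 0.77 (SE, edgeR FDR 0.0123). Without HOXA9 OFF replicate 2 that difference was -1.31 and was not called (edgeR FDR 0.0887), without CAF-1 OFF replicate 1 it was -2.54 and was not called (edgeR FDR 0.083), without CAF-1 OFF replicate 2 it was -3.67 and without HOXA9 OFF replicate 1 it was -3.77. Over all alternatives its FDR ran from 9.44e-05 to 0.0887.

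H2-DMa, the alpha chain of the peptide editor, was well expressed before any induction. It was at 21.3 and 26.4 CPM in uninduced iGMPs, 19.2 and 27.0 CPM in the IPTG control, 41.9 and 37.5 CPM in CAF-1 OFF and 90.3 and 78.2 CPM in HOXA9 OFF. The CAF-1 OFF libraries lay between the controls and HOXA9 OFF with no overlap on either side. The log2 change was 0.74 ± 0.19 in CAF-1 OFF against uninduced cells (SE, edgeR FDR 0.0323), 0.78 ± 0.19 against the IPTG control (edgeR FDR 0.0308) and 1.82 ± 0.19 in HOXA9 OFF against uninduced cells (edgeR FDR 0.000146). Its level in CAF-1 OFF was below that in HOXA9 OFF by a log2 difference of -1.08 ± 0.19 (edgeR FDR 0.00208), so each step of that order past the controls was larger than the spread between libraries.

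H2-DMb1 and H2-DMb2 are neighbouring genes for the beta chain of H2-DM. H2-DMb1 was at 14.5 and 13.2 CPM in uninduced iGMPs, 13.6 and 14.0 CPM in the IPTG control, 18.1 and 20.1 CPM in CAF-1 OFF and 28.3 and 25.1 CPM in HOXA9 OFF. H2-DMb2 was at 1.87 and 2.44 CPM in uninduced iGMPs, 2.19 and 2.27 CPM in the IPTG control, 3.84 and 3.82 CPM in CAF-1 OFF and 24.6 and 17.0 CPM in HOXA9 OFF. For both genes the CAF-1 OFF libraries lay above all control libraries and below both HOXA9 OFF libraries. In HOXA9 OFF the log2 change from uninduced cells was 0.95 ± 0.15 for H2-DMb1 (SE, edgeR FDR 0.0011) and 3.27 ± 0.27 for H2-DMb2 (edgeR FDR 5.28e-05). In CAF-1 OFF neither change passed the test: it was 0.46 ± 0.15 for H2-DMb1 (edgeR FDR 0.0636) and 0.83 ± 0.27 for H2-DMb2 (edgeR FDR 0.0627). H2-DMb2 was lower in CAF-1 OFF than in HOXA9 OFF by a log2 difference of -2.44 ± 0.26 (edgeR FDR 0.000232). For H2-DMb1 the same difference was -0.48 ± 0.15 (edgeR FDR 0.0262), which is under 1.5-fold and was not called.

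**Figure D3:**
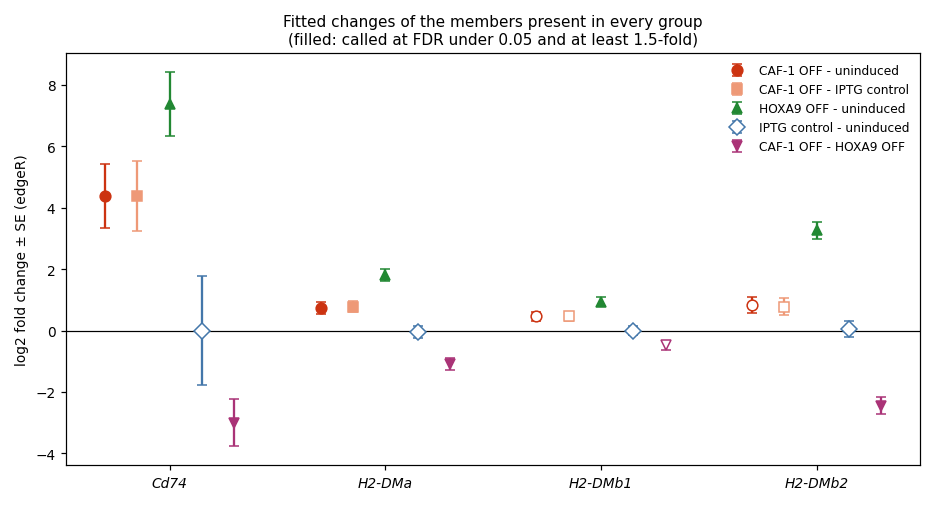
Fitted log2 fold changes (y axis, edgeR, bars are 1 SE) of the 4 members with counts in every library (x axis), in 5 comparisons given by color and shape. Filled symbols were called, and the HOXA9 OFF change from uninduced cells ranges from 0.95 for H2-DMb1 to 7.38 for Cd74, while the IPTG control changes lie at 0.

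The balance between the 2 beta chain genes differed in HOXA9 OFF cells. H2-DMb2 took 11.4% and 15.6% of their joint counts in uninduced libraries, 13.8% and 14.0% in the IPTG control and 17.5% and 16.0% in CAF-1 OFF. It took 46.5% (95% Wilson interval 43.4 to 49.7%) and 40.4% (37.2 to 43.8%) in HOXA9 OFF. The lowest HOXA9 OFF share was thus above the upper bound of every other library, the highest of which was 21.4% in CAF-1 OFF replicate 1. The longest transcripts of both genes were 96% identical over 1045 aligned bases, and 72.9% of the 50-base windows of H2-DMb1 and 70.7% of those of H2-DMb2 were unique to one gene. Reads from the shared windows could not be assigned with certainty, so the levels of both may be too low, and the shares are of assigned counts.

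**Figure D4:**
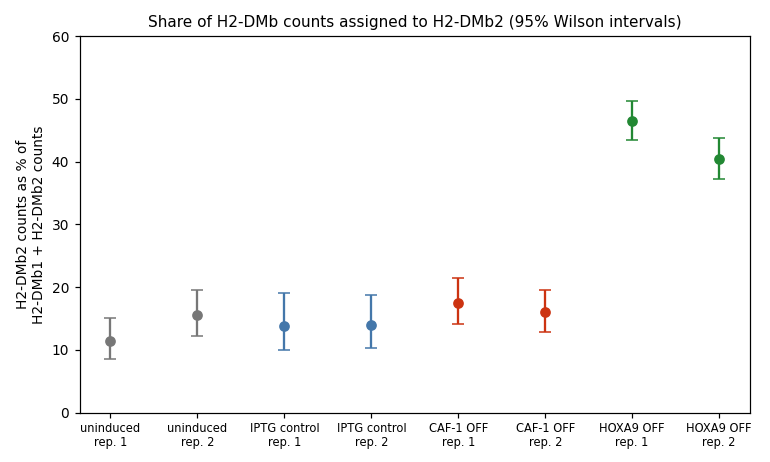
Share of the counts of H2-DMb1 and H2-DMb2 that fell on H2-DMb2 (y axis, percent), for each of the 8 libraries (x axis). Bars are 95% Wilson intervals for counting error, and the HOXA9 OFF shares of 46.5% and 40.4% stand above the others, which lie between 11.4% and 17.5%.

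The promoters of this pair are alike in their boxes. The X box begins 98 bases before the start in H2-DMb1 and 127 bases before it in H2-DMb2, and in both it is followed by a Y box after 21 bases. The X box of H2-DMb1 fits every letter searched. Counted from 1 at the 5′ end, with the base of H2-DMb1 first, the X boxes differ by G5T and T10C, the first of which breaks a searched letter. Both are given on the strand of the gene, with the bases that were searched and those left free all in capitals.
H2-DMb1 X box: CCTAGTAACTGATG
H2-DMb2 X box: CCTATTAACCGATG

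Ciita (chr16:10480237-10527657, plus strand), the co-activator of the pathway, was near the limit of detection. It had 3 and 6 counts in uninduced cells, 1 and 0 in the IPTG control, 13 and 4 in CAF-1 OFF and 1 and 3 in HOXA9 OFF. CAF-1 OFF replicate 1 was the highest library, and CAF-1 OFF replicate 2 lay within the uninduced range. The ratio of CAF-1 OFF to uninduced cells was 2.27, with a counting interval from 0.958 to 5.78, and that to the IPTG control was 13.6 on 1 control count, with an interval from 2.13 to 568. A fit with no filter gave an edgeR FDR of 0.564 and 0.13 for these comparisons. In HOXA9 OFF cells, where 4 members had their highest level, Ciita was at 0.0543 and 0.149 CPM, and its ratio to uninduced cells was 0.528 (0.119 to 1.89, edgeR FDR 0.625). The annotation holds a further protein-coding gene model named Ciita within the first (chr16:10489876-10492330), and counts per symbol do not separate them.

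Calls in CAF-1 OFF against either control changed when 1 library was left out. A group then had 1 library, which was assumed to vary like the other groups, so a call can be lost through fewer libraries as well as through a smaller change. Against uninduced cells, 0 members were called without uninduced replicate 1 or without CAF-1 OFF replicate 2, 1 without uninduced replicate 2, 2 without CAF-1 OFF replicate 1 and 4 without HOXA9 OFF replicate 2, when H2-DMb2 was added (edgeR FDR 0.0465). H2-Aa just missed the threshold where it was lost, at an edgeR FDR of 0.0527 without uninduced replicate 1 and 0.0514 without CAF-1 OFF replicate 2, in a range from 3.12e-06 to 0.0527 over its alternatives. Its fitted log2 change, which depends on the prior count because the controls are at 0 and is no bound, was 9.36 and 9.55 there beside 9.40 with all libraries. For Cd74 the range was 3.82e-05 to 0.149 and the log2 change without CAF-1 OFF replicate 2 was 3.71, and for H2-DMa the range was 0.0054 to 0.181. Against the IPTG control, 0 members were called without CAF-1 OFF replicate 2 or without IPTG control replicate 2, 1 without CAF-1 OFF replicate 1 or without IPTG control replicate 1, and 2 without either uninduced replicate. There the FDR ranges were 1.85e-05 to 0.0637 for H2-Aa, 0.000228 to 0.186 for Cd74 and 0.00348 to 0.171 for H2-DMa. The log2 change of Cd74 from the IPTG control was 3.71 without CAF-1 OFF replicate 2 and 5.21 without IPTG control replicate 2. In HOXA9 OFF against uninduced cells all 5 were called whichever library was left out, and between CAF-1 OFF and HOXA9 OFF 3 or 4 were.

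A further list held other class II genes and enzymes that prepare the groove, and most of its tested genes were higher in HOXA9 OFF. Among its class II genes H2-Oa rose from uninduced cells, H2-Ob did not, H2-Eb2 was untested and H2-Ea-ps was at 0. Of 15 listed genes, 14 were in the files and 12 were tested. In HOXA9 OFF against uninduced cells 9 were higher and 0 lower, beside 25.2% and 22.1% of all tested genes, with a median log2 change of 2.81 where that of all tested genes was 0.01. The change was largest for Ctss, cathepsin S, which removes the invariant chain in dendritic cells and B cells: its log2 change was 7.79 ± 0.84 (SE, edgeR FDR 0.000169), from 0.890 and 1.80 CPM to 150.1 and 451.6 CPM. March1, a ubiquitin ligase that sends surface class II to degradation, rose by 6.45 ± 0.43 (edgeR FDR 2.42e-05), from 0.490 and 0.513 CPM to 59.0 and 29.9 CPM. Ctsb and Ctsd, lysosomal proteases, rose by 3.67 and 2.81 and Ctsl, the cathepsin that removes the invariant chain in thymic epithelium, by 1.95 (edgeR FDR 0.000714, 0.00174 and 0.00888). Like Cd74, Ctss, Ctsb, Ctsd and Ctsl were higher in HOXA9 OFF replicate 2 than in replicate 1, with Ctsb at 1228 and 4431 CPM and Lgmn, an endosomal protease named after its values were seen, at 18.1 and 306.1 CPM. Lgmn was also higher in replicate 2 of the uninduced cells (6.99 and 23.7 CPM) and of the IPTG control (8.34 and 19.5 CPM), and so were Ctss and Ctsl. Ctsh, a further cathepsin called higher in HOXA9 OFF (edgeR FDR 0.0175), went the other way between these replicates, at 2.28 and 0.446 CPM. It passed the filter on low counts through the induced groups, with 2 counts at most in a control library.

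In CAF-1 OFF against uninduced cells 2 of these 12 genes were called, both higher, a share near the 10.5% of all tested genes called higher there, with a list median of 0.65 against 0.01 for all genes. They were H2-Oa and H2-Ob, the chains of H2-O, an inhibitor of H2-DM best known from B cells. H2-Ob is named because it is 1 of only 2 genes called, after its values were seen. H2-Oa was at 1.42 and 2.44 CPM in uninduced iGMPs, 1.27 and 2.45 CPM in the IPTG control, 5.11 and 5.49 CPM in CAF-1 OFF and 14.2 and 12.8 CPM in HOXA9 OFF. H2-Ob was at 3.21 and 5.39 CPM in uninduced iGMPs, 3.89 and 6.13 CPM in the IPTG control, 14.4 and 8.99 CPM in CAF-1 OFF and 3.42 and 3.17 CPM in HOXA9 OFF. H2-Oa was thus raised in both induced groups, and for H2-Ob the HOXA9 OFF libraries were close to the lowest control library. The CAF-1 OFF change from uninduced cells was 1.45 ± 0.37 for H2-Oa and 1.44 ± 0.37 for H2-Ob (SE, edgeR FDR 0.0309 and 0.0323). Against the IPTG control only H2-Oa was called (edgeR FDR 0.0336), and H2-Ob was at 1.22 ± 0.37 (edgeR FDR 0.0578). Between CAF-1 OFF and HOXA9 OFF cells H2-Ob was higher in CAF-1 OFF by 1.83 ± 0.38 (edgeR FDR 0.00484), the direction of H2-Aa, and H2-Oa was lower by a log2 difference of -1.35 ± 0.35 (edgeR FDR 0.0132), the direction of the H2-DM genes. In that comparison 2 of the 12 were higher and 6 lower in CAF-1 OFF, beside 22.2% and 21.4% of all tested genes, so the number higher was near the share over all genes.

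**Figure D5:**
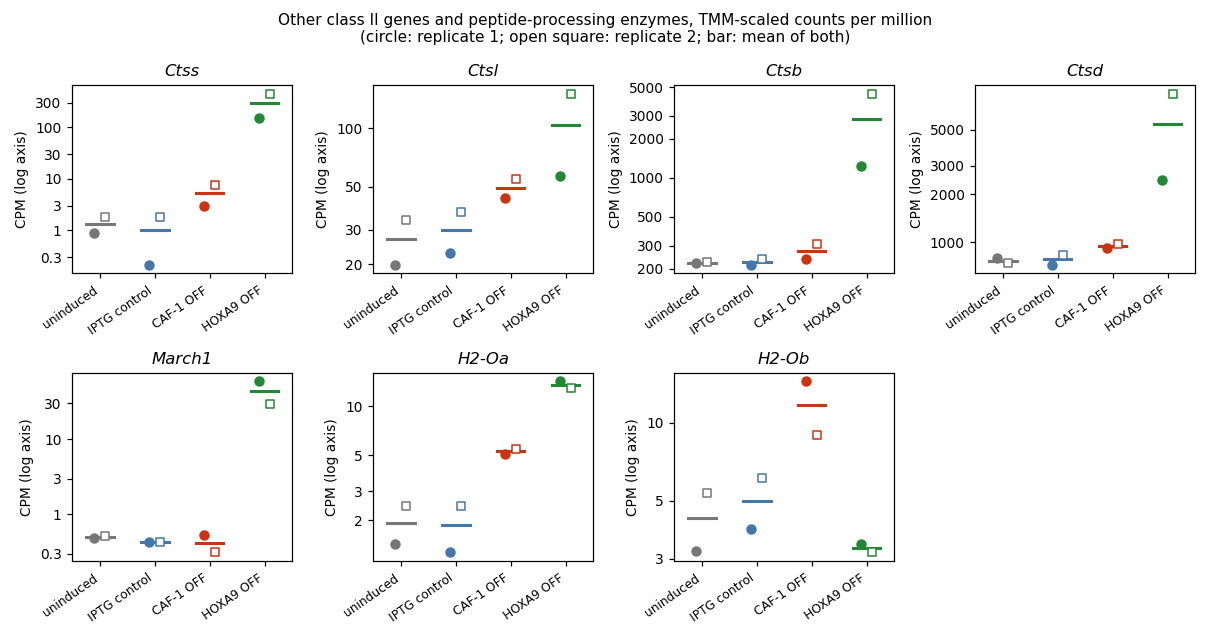
CPM (y axis, log scale with a range for each gene) of 5 enzymes and regulators of class II loading and of both H2-O chains in the 4 groups (x axis). Filled circles are replicate 1, open squares replicate 2 and bars their mean, and H2-Ob alone among the 7 is highest in CAF-1 OFF, at 14.4 and 8.99 CPM.

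The genes for the proteins that Ciita works through are too few for their counts to be told apart from the share of all tested genes. Of the 7 genes for the RFX, NF-Y and CREB subunits at the X and Y boxes, 0 were called in CAF-1 OFF against uninduced cells by edgeR or DESeq2, where edgeR called 10.5% of all tested genes higher and 3.5% lower, and 1 had an unadjusted edgeR p under 0.05. This was Nfya, named after its values were seen, with a log2 change of -0.50 ± 0.14 (SE, edgeR FDR 0.0446) that is under 1.5-fold. In HOXA9 OFF 1 of the 7 was higher and 1 lower, beside 25.2% and 22.1% of all tested genes: Rfxank rose by 1.01 ± 0.17 (SE, edgeR FDR 0.00165) and Creb1 fell, with a log2 change of -0.79 ± 0.16 (edgeR FDR 0.0042). Of 12 tested genes upstream of Ciita, 2 were higher in CAF-1 OFF and 11 in HOXA9 OFF, with 0 lower in either, beside 10.5% and 25.2% of all tested genes called higher, and the list medians were 0.52 and 1.94. Ifng, the cytokine that induces Ciita in most cells, was at 0 counts in all 8 libraries. In HOXA9 OFF the log2 changes of Irf4 and Jak2 were 6.82 ± 0.50 and 2.17 ± 0.15 (SE, edgeR FDR 3.38e-05 and 2.95e-05). Spi1, which encodes PU.1 and is listed under the symbol Sfpi1 in the files, rose from 188.9 and 144.6 CPM to 795.6 and 662.1 CPM. In CAF-1 OFF the gene of this list with the smallest FDR was Prdm1, with a log2 change of 4.35 ± 0.57 (SE, edgeR FDR 0.00543). Prdm1 encodes Blimp-1, a repressor of Ciita in plasma cells. It was at 0.178 and 0.513 CPM in uninduced iGMPs, 9.32 and 5.12 CPM in CAF-1 OFF and 4.56 and 6.05 CPM in HOXA9 OFF. Prdm1 passed the filter on low counts through these induced groups, in which it was high.

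MHC class I genes, which present cytosolic peptides and are regulated by Nlrc5, were called about as often as all tested genes. Of 19 tested, 4 were higher and 5 lower in HOXA9 OFF than in uninduced cells, beside 25.2% and 22.1% of all tested genes, with a median log2 change of -0.30. In CAF-1 OFF 3 were higher and 0 lower, beside 10.5% and 3.5%, with a median of 0.38. H2-Q7 was at 102.3 and 109.6 CPM in uninduced iGMPs, 172.4 and 184.1 CPM in CAF-1 OFF and 24.2 and 20.9 CPM in HOXA9 OFF. H2-Q6 had the same order, but the H2-Q genes are near-identical copies whose reads could be split or lost in counting. Tapbp, the class I loading factor tapasin, rose by 1.57 ± 0.12 in HOXA9 OFF (SE, edgeR FDR 3.75e-05). A further list held surface ligands through which a presenting cell tunes a T cell: Cd80, Cd86 and Icosl, which co-stimulate, the adhesion molecule Icam1, and Cd274, which encodes the inhibitory ligand PD-L1. In CAF-1 OFF 3 of these 5 tested genes were higher (Icam1, Cd274 and Cd80) and 0 lower, where 10.5% of all tested genes were higher, with a list median of 1.68. Cd86 and Icosl did not pass the test there (edgeR FDR 0.459 and 0.163). In HOXA9 OFF all 5 were higher, where 25.2% of all tested genes were, with a list median of 2.83. Icam1 was at 7.08 and 8.68 CPM in uninduced iGMPs, 21.2 and 29.3 CPM in CAF-1 OFF and 35.2 and 45.1 CPM in HOXA9 OFF. Cd86 was at 1.34 and 5.01 CPM in uninduced iGMPs, 1.11 and 1.88 CPM in CAF-1 OFF, and 9.28 and 36.0 CPM in HOXA9 OFF. It was higher in replicate 2 of the IPTG control too, at 1.06 and 5.77 CPM.

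Markers of the cells known for class II were read in the same libraries. Summed macrophage markers had the order of Cd74 across groups, though not every marker did. Their sum lay between 43.9 and 75.9 CPM in the 4 control libraries. It reached 100.3 and 145.9 CPM with CAF-1 OFF, and 1138 and 2001 CPM with HOXA9 OFF. Csf1r, Cd68, Fcgr1 and Cd14 had this order without overlap. Emr1, a large part of the sum, overlapped between CAF-1 OFF (26.32 and 42.55 CPM) and the controls (18.34 to 40.91 CPM). Unlike Cd74, Emr1 was higher in HOXA9 OFF replicate 1 (493.6 CPM) than in replicate 2 (436.5 CPM). Mrc1 overlapped between CAF-1 OFF and HOXA9 OFF. In HOXA9 OFF 7 of the 7 tested markers were higher than in uninduced cells, beside 25.2% of all tested genes, with Csf1r at 465.3 and 853.3 CPM and C1qb at 0.434 and 120.8 CPM, so that C1qb differed between these replicates in the same direction as Cd74. In CAF-1 OFF 2 of 7 were higher, Csf1r and Fcgr1, beside 10.5% of all tested genes, and DESeq2 called 4 of 7. The list median log2 change was 1.62 there and 4.05 in HOXA9 OFF. C1qb had 29 and 45 counts in CAF-1 OFF and 4 at most in a control library, and was not called (edgeR FDR 0.288). Mrc1 and Cd14 lay above all control libraries in CAF-1 OFF and just missed the threshold against uninduced cells (edgeR FDR 0.0524 and 0.0521), while Mertk and C1qa were at 0. Summed dendritic cell markers were between 29.5 and 43.6 CPM in the control libraries, 62.8 and 63.5 CPM in CAF-1 OFF and 16.6 and 44.2 CPM in HOXA9 OFF. Tcf4 made 60.1 and 61.2 CPM of this in CAF-1 OFF, where it was the 1 marker of 4 tested that was higher than in uninduced cells (edgeR FDR 0.0486), beside 10.5% of all tested genes. Against the IPTG control Tcf4 was not called (edgeR FDR 0.0575), nor was any of the other 3. The defining markers Clec9a, Cd209a and Siglech were at 0 in CAF-1 OFF, and 8 of 11 were under 1 CPM in each group. In HOXA9 OFF 2 of the 4 tested were higher, Itgax and Xcr1, and 2 lower, Tcf4 and Ccr7, beside 25.2% and 22.1% of all tested genes. Itgax, the integrin chain CD11c, was at 2.58 and 1.71 CPM in uninduced iGMPs and 5.32 and 22.6 CPM in HOXA9 OFF, a fitted 6.49-fold rise (edgeR FDR 0.00942). Xcr1 had 4 and 0 counts in uninduced cells and 15 and 17 in HOXA9 OFF (edgeR FDR 0.0382). It passed the filter on low counts only through HOXA9 OFF, so its call lends no support to the count for this list. Siglech, a marker of plasmacytoid dendritic cells, was untested, with 2 and 78 counts in HOXA9 OFF and 0 in every other library. Itgax and Siglech were thus higher in HOXA9 OFF replicate 2 than in replicate 1, as Cd74 was, while Clec9a had 4 counts in each of these libraries and Cd209a was at 0. Of 7 tested B cell markers 1 was higher in CAF-1 OFF than in uninduced cells, near the share of all tested genes: Cd79a, at 2.09 and 2.27 CPM in uninduced iGMPs and 15.5 and 15.3 CPM in CAF-1 OFF. Summed B cell markers were between 246.6 and 461.0 CPM in control libraries and 462.9 and 322.1 CPM in CAF-1 OFF, mostly Igll1 and Ebf1. They were at 61.9 and 82.0 CPM in HOXA9 OFF, mostly Cd79b at 53.7 and 58.8 CPM, and Ms4a1 had at most 0.109 CPM in any library. Of the 7 T cell markers Cd3e, Cd3g, Cd8a and Cd2 were at 0 in all 8 libraries, Cd3d had 6 counts at most, and Cd4 had 12 counts in HOXA9 OFF replicate 2 and 0 elsewhere. Lck, the 1 tested, was between 1.48 and 5.99 CPM in control libraries, 5.05 and 6.43 CPM in CAF-1 OFF, where it was not called, and 0.109 and 0.149 CPM in HOXA9 OFF, where it was lower (edgeR FDR 0.00218). The part of other cell types in the class II levels was not tested.

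The genes whose log2 CPM followed Cd74 most closely over the 8 libraries were Trim30a, Trpv2, Zswim6, Fcgr1 and Rab11fip5, with Pearson's r from 0.989 to 0.995 among 9837 genes ranked. Trim30a was at 16.5 and 17.3 CPM in uninduced iGMPs, 38.2 and 45.5 CPM in CAF-1 OFF, and 64.3 and 122.8 CPM in HOXA9 OFF. Closest to H2-Aa were Tpm4, Nlrp10, Cd79a, Ttc39b and Erp44, with r from 0.972 to 0.989. Nlrp10 was at 0.490 and 0.642 CPM in uninduced iGMPs, 178.4 and 187.7 CPM in CAF-1 OFF and 1.03 and 4.32 CPM in HOXA9 OFF. The 8 points fall into 4 groups of 2 libraries, so these values describe a shared pattern across groups and no more.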

How the data were processed

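The 8 iGMP libraries were made with a NEBNext kit that keeps strand, according to the methods. The authors mapped them to mm9 with STAR, counted per gene with HTSeq, and deposited raw read counts per gene symbol, 1 file for each library, unnormalized and not pooled. The annotation version and the strand setting are not given in the sources used here. The 5 HTSeq summary rows, which held 47.5% to 59.8% of all counts in a file, were left out.

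The class II members and all gene lists were chosen with earlier results of these data known. Counts of 34199 genes were analysed in R 4.3.3 with edgeR 4.0.16: filterByExpr by group left 13080 genes, libraries were scaled by TMM, and 1 quasi-likelihood model of all 8, with group means only, was fitted. P-values were adjusted by Benjamini-Hochberg over all tested genes, and calls needed an FDR under 0.05 and 1.5-fold, as in the study's methods. The biological coefficient of variation was 18.9%. CPM values were scaled by TMM, and likeness was read from log2 CPM (prior count 2) of genes with a mean of at least 2. Standard errors came from the F statistics. A fold against a group at 0 was taken against 3 counts in its smaller library. Ratios of summed counts have exact 95% intervals.

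All members are named. Of each other list, up to 6 called genes with the smallest FDR in CAF-1 OFF or HOXA9 OFF against uninduced cells are named, with markers that check a label, and the 5 genes most like Cd74 and H2-Aa. The values of 1 listed gene are not reported here. Alternatives were DESeq2 1.42.0 or its size factors, library size only, no filter or a mean of 50 counts, only the compared groups, the replicate block, each library left out, and an FDR of 0.01 with 2-fold. The code was tested on simulated data with 200 changed genes. Same-numbered libraries were not shown to be pairs, so the reported tests use no block. Exon lengths and shared windows came from GENCODE vM1 (mm9) and promoters from RefSeq (GRCm38.p6), searched with Python 3 scripts.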

Additional observations from a re-analysis of the deposited data

How the results depend on the processing

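Leaving out 1 library at a time moved the number of members called from 3 to between 0 and 4 in CAF-1 OFF against uninduced cells, and to between 0 and 3 against the IPTG control. It stayed at 5 in HOXA9 OFF against uninduced cells, at 0 in the IPTG control, and between 3 and 4 for CAF-1 OFF against HOXA9 OFF. An FDR of 0.01 with 2-fold called 1, 1 and 3 members in the first 3 comparisons named. A mean of at least 50 counts left H2-Aa untested, and a fit of only the compared groups left it untested in HOXA9 OFF. Cd74 in CAF-1 OFF against HOXA9 OFF was not called with only the compared groups (log2 difference -3.01, edgeR FDR 0.0514, range 9.44e-05 to 0.0887). DESeq2, its size factors, library size only and no filter left the number called the same in all 5 comparisons.

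Signs turned only among changes of the IPTG control from uninduced cells, none of them called. Leaving out 1 library at a time, Cd74 ran from -0.84 to 0.57 around 0.00, H2-DMa from -0.31 to 0.17 around -0.04, H2-DMb1 from -0.067 to 0.062 around 0.00 and H2-DMb2 from -0.13 to 0.25 around 0.05. The cause was not tested.

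With the replicate block the number of members called was 3, 3, 5, 0 and 4, the same as without it, and it changed no member's call. Deviations of same-numbered libraries correlated at 0.48, 0.30 and 0.32 among the uninduced, IPTG control and HOXA9 OFF groups and between -0.04 and 0.08 in the 3 pairs with CAF-1 OFF. Not every pair passed 0.1, so the numbers were not taken to pair libraries across all groups. Counts of 8 or fewer for H2-Ab1, H2-Eb1 and, apart from 1 library, Ciita leave changes of several fold undetectable.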
